A study of Mus musculus with 31 samples.

Results

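The genes examined were Igf2, H19 and 8 genes beside them on distal chromosome 7: Igf2as, Mrpl23, Tnnt3, Lsp1, Tnni2, Syt8, Ctsd and Th. They were chosen by name, and all 10 were found among the 38283 features of both deposited tables. The values were FPKM, fragment counts corrected for transcript length and library size, from RNA-seq of sorted pancreatic cells of C57BL/6 mice at postnatal day 2. The sort kept YFP+ mesenchymal cells and YFP- non-mesenchymal cells apart. Every group carried an Nkx3.2-Cre allele, which drives recombination in cells that express Nkx3.2, a gene of the mesenchyme around the developing gut and pancreas. In the H19DMD model, mutants were H19DMDfl/+; Nkx3.2+/Cre (4 libraries of each fraction) and controls H19DMD+/+; Nkx3.2+/Cre (3 libraries of each fraction). In the Igf2 model, non-mesenchymal mutants were Igf2+/fl; Nkx3.2Cre/+ (3 libraries) and controls Igf2+/+; Nkx3.2Cre/+ (4 libraries). The mesenchymal libraries of the Igf2 model were not analysed here, and the loss of Igf2 was therefore not seen directly in Cre-expressing cells. Of 31 samples, 21 were used. The labels do not say whether replicates came from separate animals, and p-values measure only the spread between these samples.

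Igf2 encodes a secreted growth factor of fetal and neonatal tissues and is normally read from the paternal chromosome. H19, a long non-coding RNA, is normally read from the maternal one. Both draw on shared enhancers beyond H19. On the maternal chromosome the unmethylated differentially methylated domain H19DMD binds CTCF and insulates Igf2 from them, and on the paternal chromosome DNA methylation prevents this and silences H19. The comparisons below asked whether differences at Igf2 and H19 extended to the genes beside them.

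Depth could not be read from FPKM, so no counting interval is given, and an exact 0 may be a failed estimate and is described as listed at 0. Summed FPKM of 10 mesenchymal markers (among them Col1a1, Pdgfra and Postn) was 5764 to 7438 in the mesenchymal libraries and 164 to 460 in the non-mesenchymal libraries. All 10 markers were above 0 in each group of both fractions. Each model had its own table, whose library names carry a code of their own. Effects of model and of table cannot be told apart, and every test stayed inside one table. In bulk samples, fewer cells of a type and less RNA per cell cannot be told apart.

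The 10 genes span 142375911 to 142931128 on chromosome 7 (GRCm38), a stretch of 555.2 kb. Igf2 (ENSMUSG00000048583), at 142650766 to 142666816, and H19 (ENSMUSG00000000031), at 142575529 to 142578143, both lie on the minus strand with 72.6 kb between them. Mrpl23 lies 34.8 kb beyond H19 on the side away from Igf2, followed by Tnnt3, Lsp1, Tnni2, Syt8 and Ctsd. Th lies 225.9 kb beyond Igf2 on the other side. Igf2as (ENSMUSG00000086266), a non-coding gene on the plus strand at 142659693 to 142670356, overlaps Igf2 over 7124 bases of gene span. The annotated exons of both share 98 bases, 1.71% of the Igf2 exons and 1.84% of the Igf2as exons. The use of strand in counting is not given in the sources used here, so reads in those shared bases cannot be assigned to one gene or the other.

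**Figure D1:**
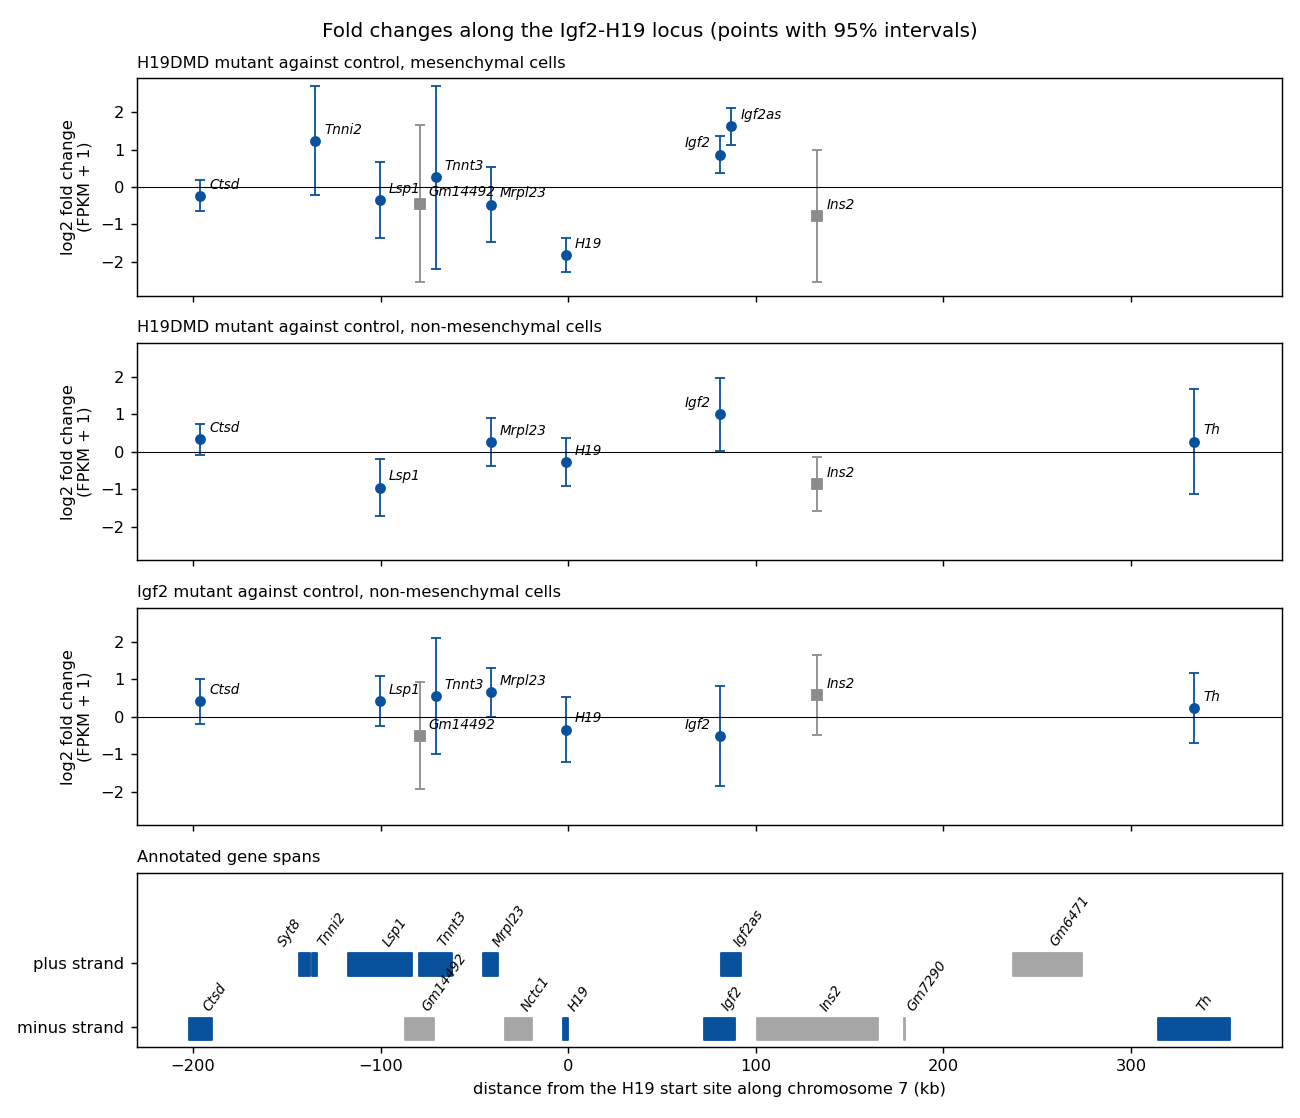
Log2 fold change of each tested gene, on log2(FPKM + 1), with 95% intervals from limma, against distance from the H19 start site in kb, for 3 mutant comparisons, with the annotated gene spans at the bottom. Blue marks the listed genes and grey marks other features. In mesenchymal cells of the H19DMD model H19 sits at -1.82, Igf2 at 0.87 and Igf2as at 1.62, and the intervals of Mrpl23, Lsp1, Tnnt3, Tnni2 and Ctsd include 0. The Tnni2 value was computed against controls listed at 0 and moves with the pseudocount.

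In mesenchymal cells of the H19DMD model, H19 fell to 28.6% of the control mean. Its mutant values were 635, 766, 565 and 835 FPKM, and its control values 2437, 2446 and 2454 FPKM. The groups were far apart, and the controls lay within a coefficient of variation of 0.332%. The log2 fold change was -1.82 ± 0.19 (SE), with a limma adjusted p of 0.0458 over 15856 genes. H19 was the only one of the 10 listed genes to pass the threshold of 0.05 in a mutant comparison. Leaving out any 1 of the 7 libraries raised the adjusted p above the threshold (0.0618 to 0.143), and the fold change then stayed between -1.91 and -1.72. Without the filter on low values the adjusted p was 0.165. Of all genes tested in these cells, 0.0694% passed in either direction. The exact permutation p, two-sided and unadjusted, was 0.0286, the smallest that 4 against 3 libraries can give.

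H19 RNA is also the host of microRNA 675, whose hairpin (chr7:142577064-142577147, minus strand, GRCm38.p6) lies wholly within annotated H19 exons. In the longest annotated transcript (2286 nt) it covers bases 997 to 1080 of exon 1. The hairpin is shown because it is the part of H19 known to be processed into small RNAs. Capitals mark both mature arms, and, in the mature sequences, the seed (bases 2 to 8), as RefSeq gives them for GRCm38.p6.
Mir675 hairpin: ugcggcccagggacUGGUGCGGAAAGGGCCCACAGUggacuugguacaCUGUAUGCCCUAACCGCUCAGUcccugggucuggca
mmu-miR-675-5p: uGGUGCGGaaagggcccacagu
mmu-miR-675-3p: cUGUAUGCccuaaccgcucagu
The 2 arms do not share a seed. Igf2 likewise hosts Mir483, whose arms are shown because they come from the partner gene at the locus.
mmu-miR-483-5p: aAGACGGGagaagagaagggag
mmu-miR-483-3p: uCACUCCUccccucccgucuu
No seed was shared between the 4 mature sequences. The features Mir675 and Mir483 were listed at 0 in all 21 libraries. The file places Mir675 in one locus with H19 and Mir483 in one locus with Igf2 and Igf2as, and mature microRNAs were not measured apart from their host genes.

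Igf2 was among the most abundant transcripts of mesenchymal cells. Its mutant values in the H19DMD model were 7923, 7467, 6608 and 6162 FPKM, and its control values 3876, 4024 and 3648 FPKM. Every mutant library lay above every control library, and the ratio of means was 1.83. The log2 fold change was 0.87 ± 0.21 (SE), which ranked 53 of 15856 genes by unadjusted p. Its limma adjusted p was 0.927 and its exact permutation p, two-sided and unadjusted, was 0.0286. Of all genes tested, 5.39% had groups that did not overlap. Among 31291 features with a transcript of at least 200 nt, Igf2 held ranks 5 to 7 in mutant and 6 to 9 in control mesenchymal libraries. H19 held ranks 29 to 50 in mutants and 7 to 11 in controls.

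Igf2 starts at several promoters, and a gene-level FPKM sums over them. RefSeq gives 4 start windows for it, each from 250 bases before a start to 50 after. Windows 1 (chr7:142666767-142667066) and 2 (chr7:142661222-142661521) lie inside the span of Igf2as, on the opposite strand. Windows 3 (chr7:142658755-142659054) and 4 (chr7:142657447-142657746) lie outside it. The latter pair is shown because it holds the GC boxes of Igf2 (GGGCGG, or CCGCCC for the other strand), in capitals, with 1 in window 3 and 2 in window 4. All windows are read on the minus strand, 5′ to 3′ (GRCm38.p6).
Igf2 window 3: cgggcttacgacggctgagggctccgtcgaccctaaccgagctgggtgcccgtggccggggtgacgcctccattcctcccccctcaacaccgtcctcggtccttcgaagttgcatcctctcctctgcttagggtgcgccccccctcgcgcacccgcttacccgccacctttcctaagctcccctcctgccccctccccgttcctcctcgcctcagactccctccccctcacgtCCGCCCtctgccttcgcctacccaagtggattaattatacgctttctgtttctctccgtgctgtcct
Igf2 window 4: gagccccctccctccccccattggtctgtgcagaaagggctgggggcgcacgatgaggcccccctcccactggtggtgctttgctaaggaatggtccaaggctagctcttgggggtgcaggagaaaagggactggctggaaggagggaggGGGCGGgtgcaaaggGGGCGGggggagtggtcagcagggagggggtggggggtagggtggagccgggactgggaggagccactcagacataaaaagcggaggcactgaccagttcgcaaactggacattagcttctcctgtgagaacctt
This motif occurs in 35.7% of 32851 such windows of all genes. No such window was matched for H19, Igf2as, Tnnt3, Lsp1 or Tnni2.

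Igf2as, the antisense non-coding gene, showed the largest mutant to control ratio of the neighbours above 1 FPKM in both groups. Its mesenchymal mutant values were 11.8, 11.8, 11.4 and 13.96 FPKM, and its control values 3.96, 3.76 and 2.36 FPKM. The groups did not overlap, and the ratio of means was 3.64. The log2 fold change was 1.62 ± 0.21 (SE) with a 95% interval of 1.13 to 2.11, rank 13 of 15856 genes by unadjusted p. The limma adjusted p of 0.128 did not pass the threshold, and it ranged from 0.0764 to 0.834 over 13 alternative settings. The exact permutation p, two-sided and unadjusted, was 0.0286. Igf2as amounted to 0.149 to 0.226% of Igf2 FPKM in mesenchymal mutants and 0.0648 to 0.102% in mesenchymal controls. Its share of Igf2 was thus higher in every mesenchymal mutant library. In non-mesenchymal cells of both models Igf2as was at most 0.398 FPKM, and the groups overlapped. In those of the H19DMD model its share was 0 to 0.345% in mutants and 0.290 to 0.589% in controls, which also overlapped.

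**Figure D2:**
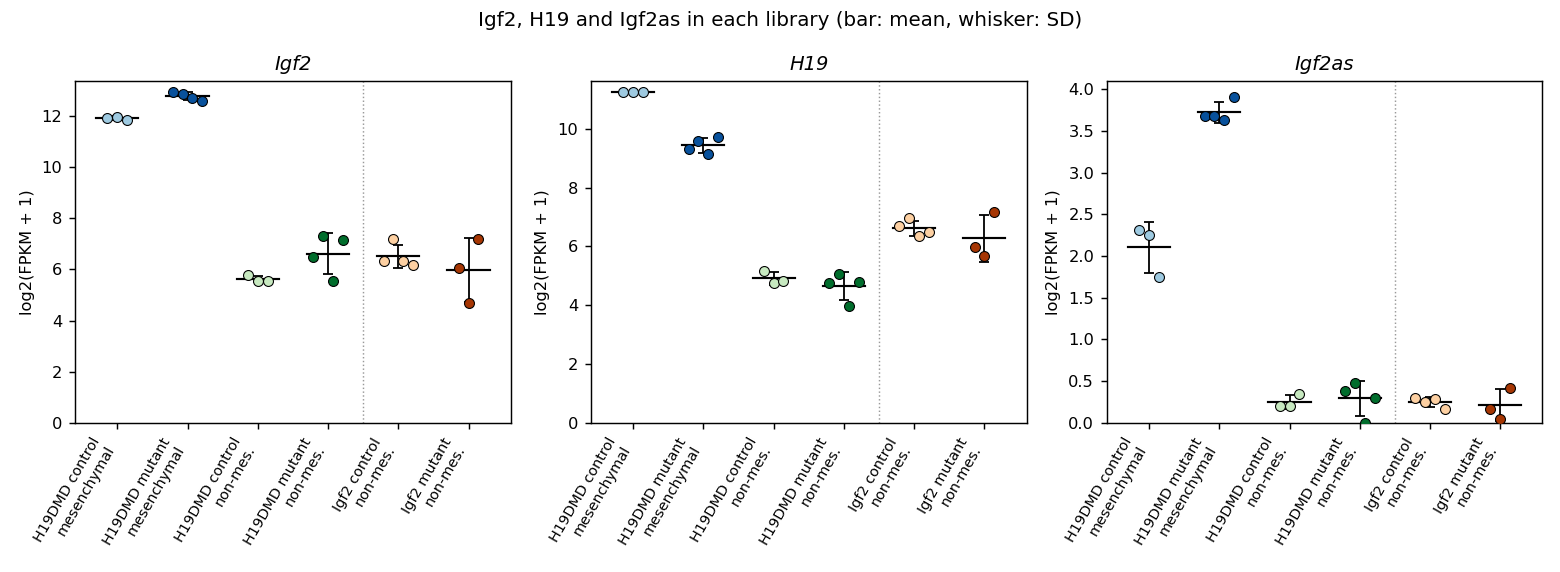
Log2(FPKM + 1) of Igf2, H19 and Igf2as in each of 21 libraries, by group, with points for libraries, bars for means and whiskers for SD. The dotted line separates the tables of the H19DMD and Igf2 models. In mesenchymal cells mutants and controls of the H19DMD model do not overlap for any of the 3 genes, while in non-mesenchymal cells they overlap for each.

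The balance of Igf2 to H19 within each library put both genes on one scale. The ratio of Igf2 to H19 FPKM was 7.38 to 12.5 in mesenchymal mutants and 1.49 to 1.64 in mesenchymal controls. Non-mesenchymal cells of the H19DMD model had lower levels of both genes, yet the ratio was 3.10 to 5.36 in mutants and 1.53 to 1.72 in controls, again with no overlap. In non-mesenchymal cells of the Igf2 model the ratio was 0.501 to 1.05 in mutants and 0.772 to 1.17 in controls, and the groups overlapped. These ratios are a description, with no test.

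The non-mesenchymal values behind those ratios were small and spread widely. Igf2 was 88.5, 157, 45.4 and 141 FPKM in H19DMD mutants and 53.2, 45.2 and 46.2 FPKM in controls. H19 was 26.2, 32.4, 14.6 and 26.4 FPKM in mutants and 34.8, 26.2 and 27.0 FPKM in controls. The groups overlapped for both genes, with log2 fold changes of 1.00 ± 0.42 (SE) for Igf2 and -0.27 ± 0.28 (SE) for H19. Neither passed (limma adjusted p = 0.894 and 0.898, against 0.0677% of all genes that passed). Summed mesenchymal markers were 184, 296, 164 and 255 FPKM in the same mutant libraries and 201, 208 and 170 FPKM in the controls, and overlapped. Igf2 was 27.7 to 55.4% of that sum in mutants and 21.7 to 27.2% in controls, and H19 was 8.92 to 14.2% and 12.6 to 17.3%. The part of mesenchymal RNA in these levels was not tested.

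**Figure D3:**
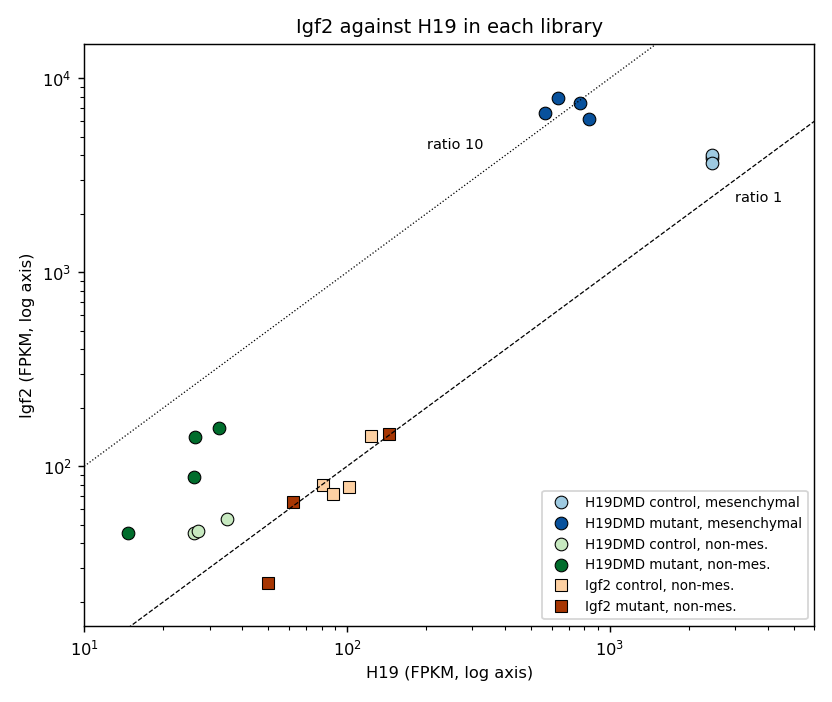
Igf2 FPKM against H19 FPKM in each of 21 libraries on log axes, with lines at ratios of 1 and 10, circles for the H19DMD model and squares for the Igf2 model. Mesenchymal controls of the H19DMD model lie just above the line of 1 (1.49 to 1.64) and their mutants near the line of 10 (7.38 to 12.5). The models come from separate tables, and levels are not compared between them.

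In the Igf2 model, non-mesenchymal Igf2 was 65.2, 25.0 and 147 FPKM in mutants and 78.3, 144, 80.2 and 71.5 FPKM in controls. H19 was 62.3, 49.9 and 144 FPKM in mutants and 101, 123, 81.0 and 88.1 FPKM in controls. Groups overlapped for both, and the log2 fold changes were -0.52 ± 0.57 (SE) for Igf2 and -0.34 ± 0.37 (SE) for H19. Neither passed (limma adjusted p = 0.924 and 0.922, against 0.0631% of all genes). Without mutant library 2 the Igf2 value was 0.12, so its direction rests on that library. Summed mesenchymal markers were 335, 229 and 460 FPKM in the mutant libraries, in the same order, and 226, 379, 431 and 382 FPKM in the controls. Mutant library 2 was thus the lowest of its group in Igf2, H19 and marker sum, and mutant library 3 the highest in all of them.

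Of the 8 neighbours, 6 reached the filter (a mean of 1 FPKM) in H19DMD mesenchyme, and of these 0 passed by limma. Tnni2 is among the 6 only through its mutants, since its controls were listed at 0. Of those tested, 1 (Igf2as) had an unadjusted p under 0.05 (755 of 15856 genes did) and groups that did not overlap (5.39% of all genes). In non-mesenchymal cells 4 neighbours were tested, 0 passed, and 1 (Lsp1) had an unadjusted p under 0.05 (868 of 16239 genes did). There the groups did not overlap for 2 (Lsp1 and Ctsd), where 5.68% of all genes had groups that did not overlap. In the Igf2 model 5 were tested (Tnnt3 only through its mutants), and 0 passed. Of these, 1 (Mrpl23) had an unadjusted p under 0.05 (921 of 17441 genes did) and no overlap (6.02% of all genes). The other neighbours were below the filter and their groups overlapped in each of these 3 comparisons. A gene that misses the threshold is not shown to be unaffected.

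Mrpl23, which encodes a protein of the large mitochondrial ribosomal subunit, is the protein-coding neighbour nearest to H19. It was 4.16, 1.82, 6.59 and 8.42 FPKM in mesenchymal mutants of the H19DMD model and 5.55, 7.90 and 7.33 FPKM in controls. The groups overlapped, and the log2 fold change was -0.47 with a 95% interval of -1.47 to 0.53 (limma adjusted p = 0.927). In non-mesenchymal cells it was 10.8, 5.25, 9.20 and 12.2 FPKM in mutants and 7.09, 7.95 and 6.96 FPKM in controls, which also overlapped (log2 fold change 0.26, 95% interval -0.39 to 0.91). The Igf2 model gave 18.0, 21.9 and 17.8 FPKM in mutants and 7.05, 15.4, 12.2 and 14.3 FPKM in controls. All 3 mutant libraries lay above all 4 controls. The log2 fold change was 0.66 ± 0.28 (SE), with a limma adjusted p of 0.919 and an exact permutation p of 0.0571, two-sided. Summed FPKM of 8 acinar markers (among them Cpa1, Prss2 and Pnlip) also stood apart between these groups, at 83196 to 95667 in mutants and 28533 to 40831 in controls, with 0 and 1 of the 8 listed at 0 throughout the group. That of 5 ductal markers (among them Krt19, Sox9 and Spp1) stood apart the other way, at 773 to 930 in mutants and 935 to 1276 in controls, with all 5 above 0. Total FPKM did not overlap either, at 3705912 to 6239188 in mutants and 2218952 to 3515900 in controls. The part of these sums in the Mrpl23 values was not tested.

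Ctsd encodes cathepsin D, a lysosomal protease made by most cells. In H19DMD mesenchyme it was 55.8, 52.9, 53.6 and 40.6 FPKM in mutants and 51.8, 63.3 and 64.4 FPKM in controls, which overlapped. In non-mesenchymal cells it was 74.0, 64.4, 61.9 and 74.8 FPKM in mutants and 42.9, 61.6 and 59.7 FPKM in controls, and each mutant was above each control. The log2 fold changes were -0.24 ± 0.18 (SE) and 0.34 ± 0.18 (SE), with limma adjusted p of 0.927 and 0.894. The exact permutation p of the non-mesenchymal difference was 0.0286, two-sided and unadjusted. The difference between the fractions was -0.58 ± 0.24 (SE), which did not pass (limma adjusted p = 0.755, unadjusted 0.0330). The Igf2 model gave 129, 83.7 and 156 FPKM in mutants and 73.5, 110, 82.1 and 95.7 FPKM in controls, and these overlapped (log2 fold change 0.41, 95% interval -0.18 to 1.00).

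Lsp1 encodes an actin-binding protein known from leukocytes. It was 24.3, 56.5, 28.8 and 27.6 FPKM in mesenchymal mutants of the H19DMD model and 47.6, 22.6 and 65.1 FPKM in controls. The groups overlapped, and the log2 fold change was -0.34 with a 95% interval of -1.36 to 0.67. In non-mesenchymal cells it was 39.5, 15.3, 30.2 and 36.5 FPKM in mutants and 57.2, 52.2 and 59.8 FPKM in controls, so that each mutant was below each control. The log2 fold change was -0.95 ± 0.32 (SE), with a limma adjusted p of 0.892 and an exact permutation p of 0.0571, two-sided. Summed FPKM of 8 leukocyte markers (among them Ptprc, Coro1a and Tyrobp) was 403 to 696 in those mutants and 476 to 796 in those controls, with all 8 above 0 in both groups. Its part in the Lsp1 values was not tested. Lsp1 in the Igf2 model was 57.8, 121 and 70.1 FPKM in mutants and 63.3, 50.6, 49.5 and 74.9 FPKM in controls, which overlapped (log2 fold change 0.42, 95% interval -0.25 to 1.09).

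Th encodes tyrosine hydroxylase, the rate-limiting enzyme of catecholamine synthesis. It was listed at 0 in all 4 mesenchymal mutants of the H19DMD model and in 2 of 3 controls, the third being 0.462 FPKM. In non-mesenchymal cells it was 6.04, 1.41, 1.83 and 3.93 FPKM in mutants and 0.779, 1.55 and 6.47 FPKM in controls. The Igf2 model gave 2.08, 3.49 and 2.62 FPKM in mutants and 4.93, 1.43, 1.45 and 1.75 FPKM in controls. Mutants and controls overlapped in each, with log2 fold changes of 0.28 ± 0.59 (SE) and 0.23 ± 0.40 (SE). Without mutant library 1 the former was -0.0044, and without control library 1 it was -0.15.

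Tnnt3 and Tnni2 encode fast skeletal muscle troponin T and troponin I, and Syt8 encodes a member of the synaptotagmin family. Over the 21 libraries Tnnt3 was at most 12.5 FPKM and listed at 0 in 7. Tnni2 was at most 4.77 FPKM and listed at 0 in 9, and Syt8 at most 3.16 FPKM and listed at 0 in 16. In mesenchymal cells of the H19DMD model Tnni2 was 1.17, 4.77, 1.45 and 0 FPKM in mutants and listed at 0 in all 3 controls, which overlap at 0. Syt8 was 0, 3.16, 1.62 and 0 FPKM in those mutants and listed at 0 in those controls. Tnnt3 was 0, 3.28, 0 and 12.5 FPKM in those mutants and 3.15, 0 and 1.92 FPKM in those controls. Its log2 fold change had a 95% interval from -2.18 to 2.71, and its direction turned under other settings. The 3 genes overlapped between mutants and controls in all 3 mutant comparisons. Summed FPKM of 8 skeletal muscle markers (among them Acta1, Ckm and Mylpf) was 2.69 to 8.55 in the mesenchymal mutants and 9.26 to 24.2 in their controls, which did not overlap, with 0 and 2 of the 8 listed at 0 throughout the group. Its part in these values was not tested.

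**Figure D4:**
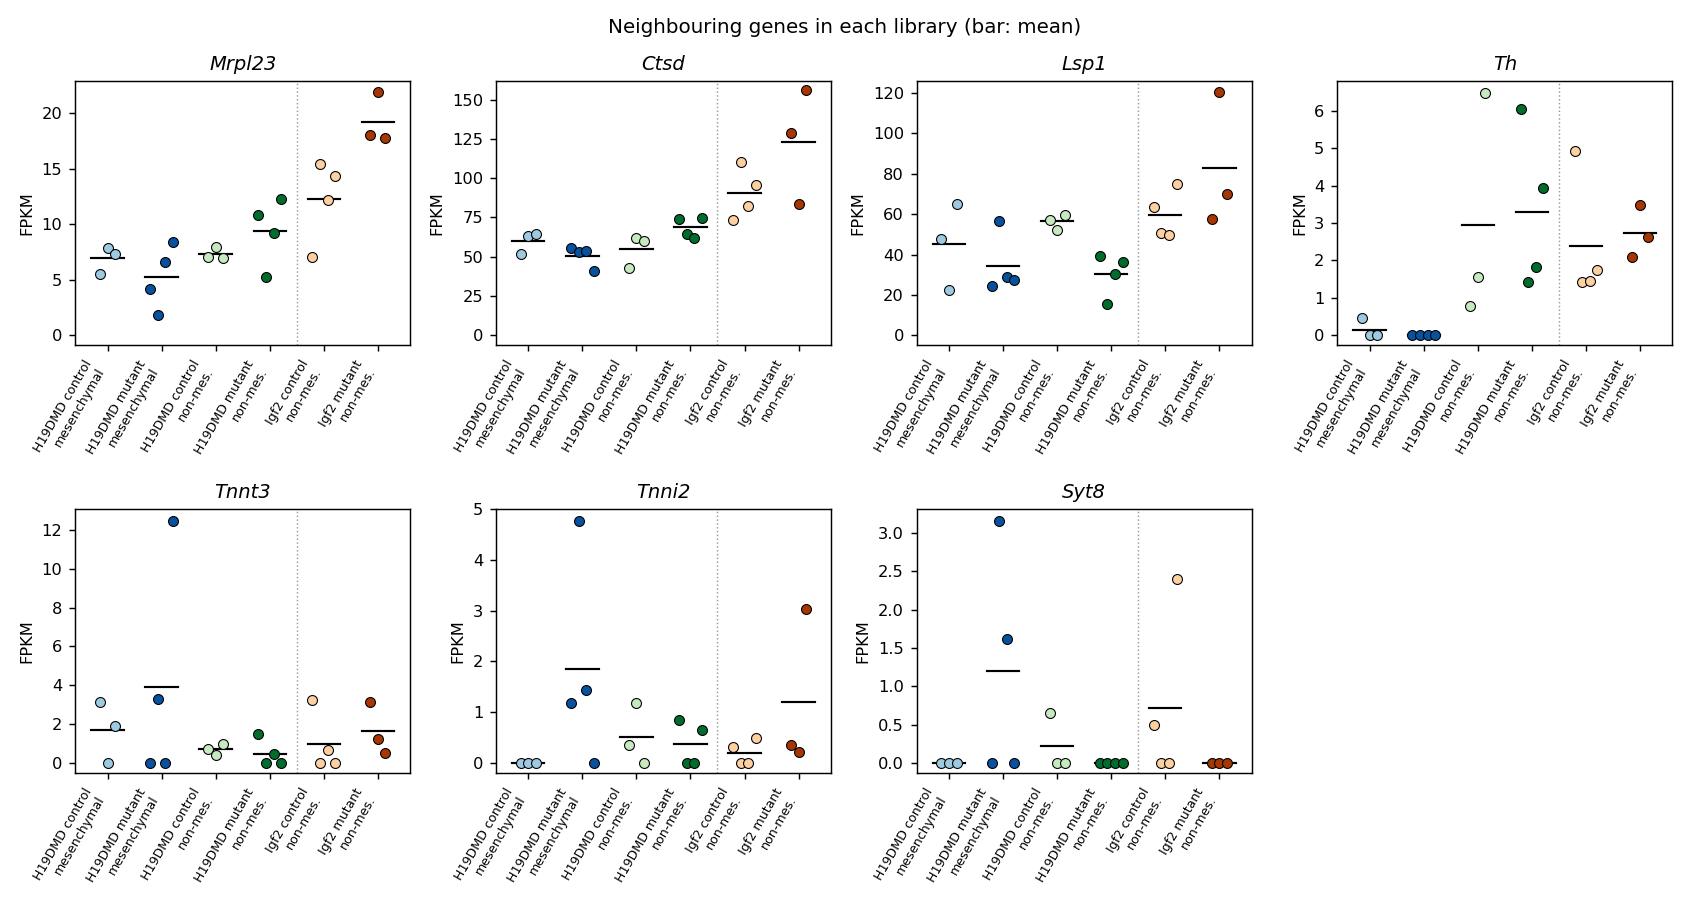
FPKM of 7 neighbours in each of 21 libraries, by group, with points for libraries and bars for means. The dotted line separates the tables of the H19DMD and Igf2 models. Mutants and controls do not overlap for Ctsd and Lsp1 in non-mesenchymal cells of the H19DMD model and for Mrpl23 in the Igf2 model, and they overlap in the other panels.

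Other features lie between the outermost listed genes. Of these 8, Ins2, which encodes insulin, was the one with a high level. It was 6991, 5056, 4387 and 3738 FPKM in non-mesenchymal H19DMD mutants and 6416, 10095 and 10819 FPKM in controls, which overlapped (log2 fold change -0.86 ± 0.31 SE, limma adjusted p = 0.892). Summed FPKM of 8 endocrine markers, Ins2 among them, was 10441 to 19895 in those mutants and 19149 to 29077 in those controls, with all 8 above 0 in both groups. Its groups also overlapped in the other 2 mutant comparisons. Nctc1, a non-coding gene between Mrpl23 and H19, was at most 0.448 FPKM. Mir675, Mir483, Gm6471 and a U6 feature were listed at 0 throughout, Gm7290 was at most 1.30 FPKM, and Gm14492 did not pass in the 2 mutant comparisons in which it was tested. Within 1 Mb outside the outermost genes, 36, 40 and 41 of 73 features were tested in the mesenchymal, non-mesenchymal and Igf2 model comparisons. By limma 0 passed in each, and 2, 5 and 2 had an unadjusted p under 0.05. Over all genes 755 of 15856, 868 of 16239 and 921 of 17441 did. Counted separately, groups did not overlap for 1, 5 and 1 of the features tested, or 2.78, 12.5 and 2.44%, where the shares over all genes were 5.39, 5.68 and 6.02%. The 5 in non-mesenchymal cells were Cars, Cdkn1c, Muc6 and Efcab4a (higher in mutants) and Dhcr7 (lower), named after their values were seen. Cdkn1c, an imprinted inhibitor of cyclin-dependent kinases, averaged 13.1 FPKM in mutants and 7.49 FPKM in controls, with a limma adjusted p of 0.892.

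**Figure D5:**
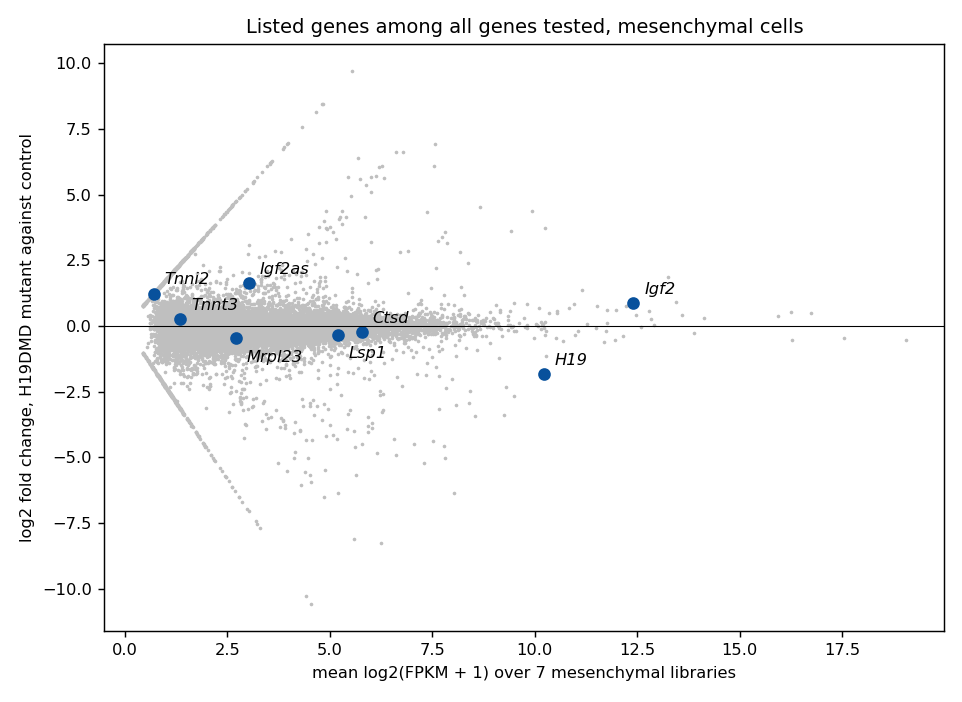
Log2 fold change of H19DMD mutants against controls in mesenchymal cells against mean log2(FPKM + 1) for all 15856 genes tested (grey), with the 8 listed genes that were tested in blue. H19 (-1.82) and Igf2 (0.87) lie at the right, Igf2as (1.62) lies at a lower mean, and diagonal lines of points are features listed at 0 in 1 group.

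Whether the contrast of H19DMD mutants with controls differed between fractions was tested by an interaction term over 17105 genes, of which 0.0117% passed. Libraries were treated as unpaired. Nkx3.2-Cre acts in mesenchyme, so a non-mesenchymal contrast is not read as a response of cells carrying the deletion. The interaction was -1.55 ± 0.33 (SE) for H19 and -0.14 ± 0.47 (SE) for Igf2. The limma adjusted p was 0.448 and 0.979, so neither passed. Igf2as reached the filter only through the mesenchymal groups, and its interaction is not read. For Igf2 the values in the fractions were 0.87 and 1.00, and the 95% interval of their difference ran from -1.16 to 0.88. The median of this term over all genes was -0.11, and -0.0048 after median-ratio scaling.

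The fractions themselves differed strongly at the locus. The tests treated their libraries as unpaired, and whether both fractions came from the same animals is not given. In H19DMD controls Igf2 averaged 3849 FPKM ± 189 (SD, n = 3) in mesenchymal and 48.2 FPKM ± 4.4 (SD, n = 3) in non-mesenchymal cells, and H19 2446 ± 8.1 and 29.3 ± 4.7 FPKM. The limma log2 differences were 6.29 ± 0.16 (SE) for Igf2 (adjusted p = 3.49e-05) and 6.34 ± 0.17 (SE) for H19 (adjusted p = 4.69e-05). Of all genes 22.6% passed, and 39.9% had fractions that did not overlap. With 3 against 3 libraries the exact permutation test cannot go below 0.1. In mutants the differences were 6.16 ± 0.37 (SE) for Igf2 and 4.79 ± 0.25 (SE) for H19, with limma adjusted p of 1.11e-05 and 6.36e-06, where 28.6% of all genes passed. Igf2as, Th, Tnnt3 and, in mutants, Tnni2 reached the filter only through the fraction in which they were high. Being kept thus favoured a difference between fractions, and no test of them is given. Igf2as averaged 3.36 FPKM in mesenchymal and 0.193 FPKM in non-mesenchymal controls, and 12.2 and 0.233 FPKM in mutants. Th averaged 0.154 and 2.93 FPKM in controls, and in mutants it was listed at 0 in mesenchymal cells and averaged 3.30 FPKM in the others. In mesenchymal and non-mesenchymal cells Tnnt3 averaged 1.69 and 0.712 FPKM in controls and 3.94 and 0.487 FPKM in mutants. Tnni2 averaged 1.85 and 0.375 FPKM in mutants, and the fractions overlapped for both genes. Mrpl23, Lsp1 and Ctsd did not pass in either genotype. Ctsd was lower in each mesenchymal than in each non-mesenchymal mutant library (log2 difference -0.44 ± 0.15 SE, adjusted p = 0.0616, against 31% of all genes without overlap).

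In H19DMD mesenchymal controls the order of mean FPKM was Igf2, H19, Ctsd, Lsp1, Mrpl23, Igf2as, Tnnt3 and Th, with Tnni2 and Syt8 listed at 0. Their means were 3849 ± 189, 2446 ± 8.1, 59.8 ± 7.0, 45.1 ± 21, 6.93 ± 1.2, 3.36 ± 0.87, 1.69 ± 1.6 and 0.154 ± 0.27 FPKM (SD, n = 3). Ctsd and Lsp1 overlapped in range, as did Igf2as and Tnnt3, and Tnnt3 and Th. In the mutants the order was Igf2 at 7040 ± 800, H19 at 700 ± 123, Ctsd at 50.7 ± 6.9, Lsp1 at 34.3 ± 15 and Igf2as at 12.2 ± 1.2 FPKM (SD, n = 4). Mrpl23 followed at 5.25 ± 2.9 FPKM, so that Igf2as and Mrpl23 changed places between genotypes.

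The genes most like Igf2 over the 14 H19DMD libraries were Dlk1 (Pearson's r = 0.993), Postn, Col5a1, Sparcl1 and Nid2 among 6629 candidates. Dlk1, an imprinted gene of the Notch ligand family, averaged 596 FPKM in mesenchymal and 19.2 FPKM in non-mesenchymal controls. Those most like H19 were SCARNA15 (r = 0.986), Fbln2, Klf4, Aebp1 and Ahnak. The correlation of Igf2 with H19 was 0.935. These points share the sort, and the correlation mostly follows the fraction. Over the 7 mesenchymal libraries Igf2 was most like Rsf1 (r = 0.944), Vdac1 and Igf2as (r = 0.943 for both), Ppp1r15a and Bmf. H19 was most like Mir344g (r = 0.982, a microRNA feature of 71 nt), Cdk4, Ppp6r3, Sugp2 and Pcsk6. Igf2 and H19 had r = -0.962 there, the lowest for Igf2 of 6711 candidates. These points form a mutant and a control cluster, so the values restate the difference between genotypes, and no p is given.

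Genes of the surrounding pathways were taken from lists chosen with earlier results of these data known. Of 15 tested factors of imprinting control (such as Ctcf, Zfp57, Dnmt1 and the cohesin subunits) 0 passed in mesenchymal cells of the H19DMD model, and their median log2 fold change was -0.04, where that of all genes was -0.07. Those furthest from 0 were Uhrf1 (-0.76 ± 0.39 SE) and Dnmt1 (-0.62 ± 0.23 SE), both with a limma adjusted p of 0.927. Of 15 tested members of the imprinted growth network (such as Dlk1, Cdkn1c, Plagl1 and Mest) 0 passed, with a median of 0.10. Of 15 genes of the IGF pathway (ligand Igf1, receptors Igf1r, Igf2r and Insr, binding proteins and adaptors) 0 passed, with a median of -0.0029. Igf2r is on both of the latter lists. At an unadjusted p under 0.05 by limma there were 1, 0 and 0 in the 3 lists, and 755 of all 15856 genes. Within the IGF pathway list the furthest from 0 was Igfbp6, at 12.1 FPKM ± 6.7 (SD, n = 4) in mutants and 19.7 FPKM ± 8.7 (SD, n = 3) in controls. In non-mesenchymal cells, leaving out Dnmt3l, which reached the filter only through mutants, 0 of 15, 0 of 15 and 0 of 11 tested members passed, with medians of 0.029, 0.25 and 0.16, where that of all genes was 0.05, and 0, 1 and 0 had an unadjusted limma p under 0.05 (868 of all 16239 genes). The Igf2 model gave 0 of 15, 0 of 15 and 0 of 13, with medians of -0.07, -0.08 and -0.14, where that of all genes was -0.03, and 1, 1 and 0 had an unadjusted limma p under 0.05 (921 of all 17441 genes).

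Between fractions more of these genes differed. In H19DMD controls 3 of the 15 IGF pathway genes (Igfbp6, Irs1 and Igf2bp1) reached the filter only through mesenchymal cells and are not counted. Of the other 12, 8 were higher in mesenchymal cells (Igfbp2, Igfbp3, Igfbp4, Igfbp5, Igfbp7, Igf1, Igf2r and Igf2bp2) and 0 lower, where 22.6% of all genes passed in either direction. Their median was 1.85, where that of all genes was 0.08. Binding proteins led, with Igfbp3 at 80.0 and 2.06 FPKM (log2 difference 4.73 ± 0.18 SE, adjusted p = 8.33e-05) and Igfbp4 at 154 and 5.78 FPKM (4.52 ± 0.22 SE, adjusted p = 0.00012). The growth factor Igf1 and the clearance receptor Igf2r were higher too, by 2.42 and 2.02 on the log2 scale (adjusted p = 0.00545 and 0.00625). Igf1r and Insr did not pass (0.63 and 0.20, adjusted p = 0.131 and 0.487). Of the imprinted growth network, whose tested members all reached 1 FPKM in both fractions, 12 of 15 were higher (Dcn, Plagl1, Cdkn1c, Dlk1, Mest, Ndn, Rtl1, Sgce, Meg3, Igf2r, Peg3 and Grb10) and 1, Gatm, lower, with a median of 2.29, against the same 22.6%. Among imprinting control factors Zfp57, which protects imprints from demethylation, was the 1 of 15 that passed, a smaller share than that of all genes, at 24.6 and 4.03 FPKM (2.61 ± 0.68 SE, limma adjusted p = 0.0411). In mutants 3 of 15 were higher (Zfp57, Ctcfl and Stag1) and 1 lower (Dnmt1), with limma adjusted p of 0.00167 to 0.0328, where 28.6% of all genes passed.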

How the data were processed

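RNA was amplified from small inputs with the Ovation RNA-seq V2 kit and sequenced as single reads, per the labels' protocols. For each model the authors deposited a table of gene-level FPKM, a unit named per the file headers. TopHat2 2.0.8, Cufflinks 2.2.1 and GRCm38 are named in the submitters' processing notes, without role or order. Strand use in counting, and whether libraries were scaled to each other, is not given in the sources used here. Of 38283 features, 36341 matched GENCODE M21 (GRCm38) by identifier, and 36254 overlapped it in position. Each column's name was looked up among the labels to find its sample, 8 blank columns were not used, and 10 samples were not analysed here.

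Because FPKM are not counts, log2(FPKM + 1) was fitted with limma 3.58.1 in R 4.3.3 (lmFit, then eBayes with trend, two-sided). The filter kept genes averaging 1 FPKM or more across the groups compared, with Benjamini-Hochberg adjustment over all of them at 0.05, and only the groups compared entered a fit. Fold changes on this scale understate the change of low genes. Ratios of means are of FPKM. Two-sided exact permutation tests of the mean log2 difference stand beside the fits, unadjusted. The script was tested on simulated data. Alternatives were a pseudocount of 0.1 FPKM, no filter, median-ratio scaling, loci of at least 200 nt, a replicate block, leaving out each library, and (added after the data were seen) transcripts of at least 200 nt.

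The named genes were all 10 listed genes, every feature between them and, as counts, within 1 Mb of them, up to 4 members of each list with the largest fold change plus those past the threshold, and the 5 genes most correlated with Igf2 and H19. Features named within 1 Mb, and the receptors Igf1r and Insr, were chosen outside this rule after their values were seen. The members, lists and markers were chosen with earlier results of these data known. Marker lists not quoted beside a result are not reported here. Candidates for likeness had a mean log2(FPKM + 1) of at least 3. Mature, hairpin and promoter sequences come from RefSeq (GRCm38.p6).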

Additional observations from a re-analysis of the deposited data

Results flagged for a closer look

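In the 28 sets of a listed gene in a group of 4 libraries that were checked, 3 held a highest library whose gap to the next, as a share of the group's range, exceeded Dixon's 95% critical value. By its construction that value flags about 1 in 20 groups by chance. Igf2 was 144 FPKM in non-mesenchymal control library 2 of the Igf2 model, against 71.5 to 80.2 FPKM in the others. Its summed mesenchymal markers were 379 FPKM, within the 226 to 431 FPKM of the group, and its summed endothelial markers 88.5 FPKM, against 12.1 to 50.2 FPKM in the others. Th was 4.93 FPKM in non-mesenchymal control library 1 of that model, against 1.43 to 1.75 FPKM in the others. Lsp1 was 56.5 FPKM in mesenchymal mutant library 2 of the H19DMD model, against 24.3 to 28.8 FPKM in the others, while its summed leukocyte markers were 6.36 FPKM, within the 5.05 to 13.4 FPKM of the group.

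Ctsd went in opposite directions in the 2 fractions of the H19DMD model. Every mesenchymal mutant lay below the mesenchymal control mean of 59.8 FPKM, and every non-mesenchymal mutant above the non-mesenchymal control mean of 54.7 FPKM. The test of the difference itself gave -0.58 on the log2 scale, which did not pass (limma adjusted p = 0.755).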

How the results depend on the processing

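Over the alternatives, 37 of 46 fold changes of listed genes kept their direction and their side of the threshold everywhere. The number of neighbours past the threshold did not change in any of 85 refits. H19 in mesenchymal cells of the H19DMD model lost its call without the filter on low values (-1.82, adjusted p = 0.165), under the replicate block (-1.91, adjusted p = 0.834) and without any 1 library (-1.91 to -1.72). The adjusted p of H19 ranged from 0.0230 to 0.834 over all alternatives, some of which test more genes or use fewer samples. Replicate numbers did not pair the samples (correlations of same-numbered deviations from -0.0506 to 0.0674, none over 0.1). Between fractions all 7 were positive, and 5 of the 7 numbers matched their own best, a hint from the data and not the design. With the replicate block the counts of genes past the threshold were 7, 5 and 2 in the mesenchymal, non-mesenchymal and Igf2 model comparisons, where each was 11 without it, and Tnnt3 in mesenchymal cells was -0.50. A pseudocount of 0.1 gave -0.11 for the latter. With transcripts of at least 200 nt the 3 counts were 1, 0 and 0, and that of the interaction was 0 in place of 2, against 6 with a pseudocount of 0.1 and 6 with no filter. The cause was not tested. At an unadjusted limma p under 0.05 the settings with 0 calls held 871, 857 and 998 genes.

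Without each library in turn the counts were 13 to 27 in mesenchymal cells, 14 to 34 in non-mesenchymal cells, 14 to 37 in the Igf2 model and 2 to 9 for the interaction. Directions turned for Tnnt3 in mesenchymal cells (-0.50 to 0.75) and in the interaction (-0.040 to 1.05), Th in non-mesenchymal cells (-0.15 to 0.88), Igf2 in the Igf2 model (-1.13 to 0.12) and in the interaction (-0.50 to 0.091). Between fractions they turned for Mrpl23 (-0.17 to 0.049) and Ctsd (-0.026 to 0.24) in controls and Lsp1 (-0.12 to 0.32) in mutants. None of these was past the threshold, and the cause was not tested. Mesenchymal cells of the Igf2 model were not analysed here under any setting. FPKM hide the depth, so low values such as those of Syt8, Tnni2 and Igf2as in non-mesenchymal cells have no known counting error.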

Other observations

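Lsp1 overlapped in range between the mesenchymal and the non-mesenchymal libraries of the H19DMD model, and the summed leukocyte markers did not. It was 22.6 to 65.1 FPKM in the 7 mesenchymal libraries and 15.3 to 59.8 FPKM in the 7 non-mesenchymal libraries. The 8 leukocyte markers summed to 3.37 to 13.4 FPKM in the former and 403 to 796 FPKM in the latter, with 2 of them listed at 0 in every mesenchymal mutant and 1 in every mesenchymal control. The deposited table places Lsp1 in one locus with Tnnt3 and Gm14492, and Tnnt3 was at most 12.5 FPKM. Gm14492 was at most 16.4 FPKM, in mesenchymal control library 3, where Lsp1 was 65.1 FPKM, and among mesenchymal mutants it was highest (8.28 FPKM) in library 2, where Lsp1 was 56.5 FPKM. Ins2 did not overlap between the fractions either, at 7.26 to 73.7 FPKM in mesenchymal and 3738 to 10819 FPKM in non-mesenchymal libraries.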
